A study of Mus musculus with 8 samples.

Results

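Single nuclei of the primary visual cortex (V1) were profiled in mice reared under normal light (NR), with the glucocorticoid receptor removed from astrocytes (GR-KO) or left in place (GR-Con). The comparison was made up of the 4 NR libraries, chosen by the rearing recorded for each nucleus, out of 8 libraries in the series. These 4 held 48098 of the 102330 nuclei. The other 4, 2 GR-Con and 2 GR-KO, came from dark-reared (DR) mice. They were used to mark genes enriched in neurons or glia (DR GR-Con) and for a side-by-side contrast. All mice carried loxP-flanked alleles of Nr3c1 (GR fl/fl), the gene for the receptor, and were taken at postnatal day 21. At birth they had received an AAV2/5 vector in which the astrocyte promoter GfaABC1D drove either Cre (GR-KO) or the inactive ΔCre (GR-Con), each with membrane-targeted eGFP. Each group had 2 libraries, 1 male and 1 female, so sex was balanced between the groups. Nuclei were sorted as positive for the DNA dye DRAQ5 and negative for GFP, so the recovered astrocytes are those whose nuclei carried little GFP signal, and their share of transduced cells is not known.

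The glucocorticoid receptor is a transcription factor that rests in the cytoplasm until it binds corticosterone, then enters the nucleus and turns on genes with its response element nearby. Astrocytes clear transmitter and potassium from the synapse, store glycogen, make cholesterol and secrete matrix proteins. Among the best known receptor targets are Fkbp5, which feeds back on the receptor, Tsc22d3 (GILZ), which restrains inflammatory signalling, and the metallothioneins Mt1 and Mt2.

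Counts of unique molecular identifiers (UMIs) were summed per library and deposited cell type, so the animal is the replicate. Levels are CPM, the counts scaled to the UMI total of that cell type in that library, given in the order GR-Con male, GR-Con female, GR-KO male, GR-KO female. A gene was called when its Benjamini-Hochberg adjusted p in the edgeR likelihood ratio test was under 0.05. Of the 20 deposited cell types, 17 had at least 10 nuclei in each library and were tested, and 48 of 56 marker genes had their highest CPM in the type they mark. The libraries differed in depth: they held 9517 to 13311 nuclei, and the median UMIs per nucleus were 17759.5 and 15884 in GR-Con against 22827.5 and 29223 in GR-KO. In astrocytes the medians were 6267, 5586.5, 8662 and 12123.5, from 1117, 1220, 924 and 980 nuclei. Among the NR libraries, 243 barcode strings occurred in more than 1 library. Microglia numbered 2 and 4 nuclei in the male libraries against 573 and 714 in the female ones, so they were not tested. Among the dark-reared libraries the numbers were 885 and 4 in GR-Con male and female, and 734 and 948 in GR-KO male and female. With 1 library per sex and group, sex cannot be told apart from other differences between libraries. The share of nuclei passed the test for no cell type (0 of 20 called and 0 at an unadjusted p under 0.05; lowest adjusted p 0.97 in edgeR's quasi-likelihood test, with the lowest unadjusted p at 0.37, and 0.99 under likelihood ratio testing).

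The targeted gene itself gave no drop. In astrocytes Nr3c1 was at 231, 221, 284 and 268 CPM, with a log2 difference of 0.22 (SE 0.14, adjusted p 0.51). Over the other 16 types its log2 difference ran from −0.15 to 0.25, and it was called in none of them. Reads were counted over the whole gene, and a floxed exon removed from the middle of a transcript need not lower such a count, so Nr3c1 checks neither the labels nor the deletion. Cre UMIs followed the labels: they numbered 0 in both GR-Con libraries in every cell type, and 105 of 1904 GR-KO astrocyte nuclei held 1 or more. UMIs assigned to the control vector's ΔCre sequence did not. They were found in 32 and 21 GR-Con astrocyte nuclei and in 40 and 28 GR-KO astrocyte nuclei, so this feature does not tell the vectors apart.

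Receptor targets fell in astrocytes. Of 20 classical targets, 13 were lower in GR-KO and 0 were higher, with a median log2 fold change of −0.83 against 0.0013 over all genes tested; 7.11% of all tested genes were called in astrocytes (3.37% lower, 3.73% higher). The quasi-likelihood test, which called 5.15% of all genes, also called 13 of the 20, and DESeq2 called 9. The list was chosen with earlier results of these data known.

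Hif3a, a negative regulator of the hypoxia response, was at 334, 273, 75.2 and 68.9 CPM. Its mean went from 303 ± 43.3 (SD, n = 2) to 72.0 ± 4.44, a 4.40-fold drop (log2 −2.14, SE 0.16, adjusted p 1.378e-35). Sult1a1, a sulfotransferase, was at 31.1, 19.6, 5.33 and 3.28 CPM (log2 −2.64, SE 0.29, adjusted p 1.954e-16). In both genes every GR-Con library lay above every GR-KO library by a wide margin. Fkbp5 was at 129, 47.7, 21.9 and 4.92 CPM, with a log2 fold change of −2.79 and a larger SE of 0.62 (adjusted p 0.000287; 0.16 in DESeq2, which did not call it). Its female libraries were below the male library of the same group, so its spread within groups was wide. Zbtb16, a zinc-finger transcription factor, showed the same order (228, 106.5, 61.4 and 37.6 CPM, log2 −1.82, SE 0.34), and DESeq2 gave it an adjusted p of 0.0501.

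Other targets fell less. Tsc22d3 was at 90.1, 65.4, 42.1 and 25.8 CPM (log2 −1.27, adjusted p 5.88e-06). Klf15, a transcription factor of amino acid and lipid metabolism, was at 100.4, 85.6, 51.5 and 52.0 CPM (log2 −0.91), and Klf9, a Krüppel-like factor, fell by 0.98 on the log2 scale. Plin4, which coats lipid droplets, fell by 1.88 on the log2 scale but from a low level of 3.56 and 2.84 CPM. Mt1 and Mt2, which bind zinc and copper, fell by 0.72 and 0.84 on the log2 scale, the clock gene Per1 by 0.91, the NF-kB inhibitor Nfkbia by 0.83 and the EGF receptor inhibitor Errfi1 by 0.63. DESeq2 did not call Errfi1 (adjusted p 0.11) and gave Plin4 no adjusted p, and Errfi1 was called in 1 of the 4 fits with a library left out. The 7 targets that were not called included Sgk1, a kinase (10.1, 9.71, 10.5 and 11.7 CPM), and Nr3c2, the mineralocorticoid receptor (333, 367, 443 and 436 CPM, log2 0.26, adjusted p 0.44). The targeted gene Nr3c1 was counted among the 7. So was Pdk4, with the highest log2 fold change of the list (26.6, 20.5, 37.3 and 31.0 CPM, log2 0.47, adjusted p 0.13). For 13 of the 20 targets the drop in astrocytes was also larger than in the excitatory neurons of the same animals, by the test of the difference itself, which called 4.28% of all genes.

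**Figure D1:**
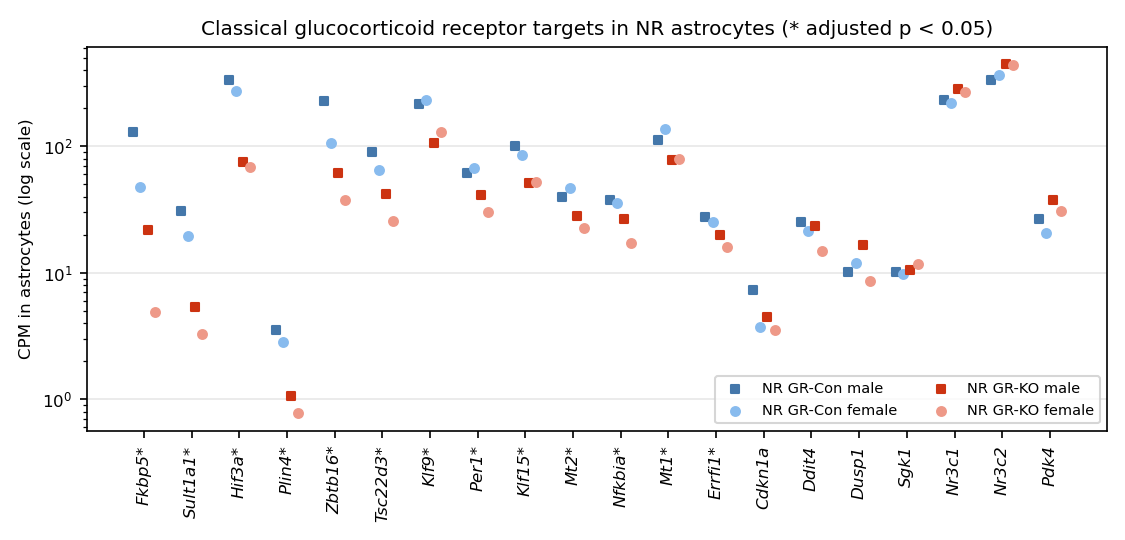
CPM in NR astrocytes (log axis) of 20 classical glucocorticoid receptor targets, ordered by log2 fold change, with 1 point per library: squares are male and circles female libraries, blue GR-Con and red GR-KO. The 13 genes with an asterisk passed the test, all with lower GR-KO values, whereas Sgk1, Nr3c1, Nr3c2 and Pdk4 at the right did not.

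Promoters were read for the called targets, which had been picked by their call in these same libraries. RefSeq (GRCm38.p6) promoters of 300 bases, from 250 bases before the transcription start to 50 after it, were searched for AGAACA or its reverse complement TGTTCT, each 1 arm of the receptor's response element. These letters occurred in 18.97% of 32817 promoters. Of the 13 called targets 12 had a promoter in the table, 16 promoters in all, and 2 of the 16 held the letters, that of Sult1a1 and 1 of the 3 of Tsc22d3. Both arms with 3 bases between them, in the order of the response element, were found in 3 promoters of the table and in 0 of these 12. The matches are shown in capitals below, with 1 of the 2 promoters of Etnppl, the gene with the lowest p in astrocytes, which held none. A match is a description of letters, and regions farther from the start were not searched.
Sult1a1 (chr7:126676369-126676668, minus strand): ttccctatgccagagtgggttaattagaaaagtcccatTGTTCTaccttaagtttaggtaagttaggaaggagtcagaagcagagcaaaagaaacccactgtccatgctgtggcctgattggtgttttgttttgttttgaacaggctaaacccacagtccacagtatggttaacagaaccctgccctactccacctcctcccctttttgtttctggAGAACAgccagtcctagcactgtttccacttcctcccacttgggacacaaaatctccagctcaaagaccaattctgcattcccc
Tsc22d3 (chrX:140600473-140600772, minus strand): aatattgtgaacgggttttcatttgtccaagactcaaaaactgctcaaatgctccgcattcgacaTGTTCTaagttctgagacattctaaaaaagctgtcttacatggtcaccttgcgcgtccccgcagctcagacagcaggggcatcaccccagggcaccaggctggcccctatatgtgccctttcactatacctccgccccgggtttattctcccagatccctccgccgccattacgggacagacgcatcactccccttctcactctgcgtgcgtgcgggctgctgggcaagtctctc
Etnppl (chr3:130617198-130617497, plus strand): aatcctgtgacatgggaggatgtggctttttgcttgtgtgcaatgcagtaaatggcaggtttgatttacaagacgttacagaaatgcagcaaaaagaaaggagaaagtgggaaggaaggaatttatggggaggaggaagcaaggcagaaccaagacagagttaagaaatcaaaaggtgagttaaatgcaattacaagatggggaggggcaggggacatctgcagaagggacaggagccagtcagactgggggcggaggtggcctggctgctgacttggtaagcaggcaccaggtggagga
In Sult1a1 the matches began 212 and 34 bases before the start, and in Tsc22d3 185 bases before it.

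In every other cell type the same targets did not pass the test. Over the 16 other types, 10 to 19 of the 20 genes were measured and 0 were called in each. The median log2 fold change over the list was −0.30 in oligodendrocytes and −0.38 in vascular leptomeningeal cells (VLMCs), the lowest values outside astrocytes, and lay between −0.19 and 0.17 in the rest. The difference was negative for 15 of 18 targets in oligodendrocytes, 9 of 10 in VLMCs and 11 of 14 in oligodendrocyte precursors. It was negative for 7 of 11 in endothelium, and in neuron types for 4 of 15 (L5NP) to 8 of 12 (Lamp5). Hif3a was at 2.84, 1.20, 0.597 and 0.568 CPM in Pvalb interneurons (log2 −1.81, adjusted p 0.19) and at 15.7, 5.40, 8.51 and 2.35 CPM in oligodendrocyte precursors (OPCs). Fkbp5 in oligodendrocytes was at 154, 65.0, 124.5 and 47.4 CPM (log2 −0.38, SE 0.46), so there the sexes separated and the genotypes overlapped. Dusp1, a phosphatase that is also an immediate early gene, was high in the GR-KO male library alone in L2/3, L4, L5PT, L6IT and L6CT, and was called in none of them: in L4 it was at 4.19, 3.45, 21.3 and 2.26 CPM.

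**Figure D2:**
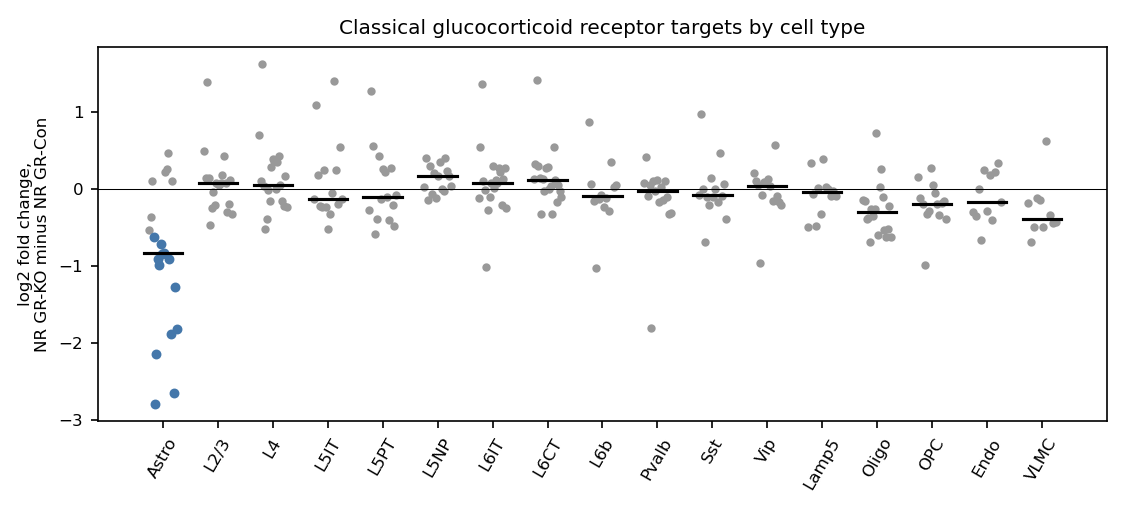
Log2 fold change of the same 20 targets in the 17 tested cell types (1 point per measured gene, blue where called, grey where not, black bar at the median). Blue points stand in astrocytes, where the median is −0.83, and in no other type.

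Astrocytes had more calls than any other single cell type. The test called 541 genes higher and 489 lower in GR-KO astrocytes (348 and 398 in the quasi-likelihood test, 324 and 365 in DESeq2). Both directions together made 1030 calls, and 605 without the GR-Con male library or 2041 with sex as a term. The other types gave 433 calls in excitatory neurons, 77 in inhibitory neurons and 270 in other non-neuronal cells. The order depended on the GR-KO female library, without which L2/3 neurons had 999 calls and astrocytes 812. Of the 541 higher genes, 343 (63.4%) were neuron-enriched, meaning that their CPM in neurons was at least 4 times that in astrocytes in the dark-reared (DR) GR-Con libraries, which share no sample with this comparison. Neuron-enriched genes made up 10.5% of the genes tested and 13 of the 489 lower genes. They are described apart from the other 198 higher genes (the vector's Cre among them) and 476 lower genes, which come first.

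Lipid genes included the call with the lowest p in astrocytes. Etnppl, an enzyme that breaks down phosphoethanolamine and whose RNA is concentrated in astrocytes, was at 285.0, 203, 28.7 and 29.3 CPM. Its mean went from 244 ± 57.8 to 29.0 ± 0.405 CPM (n = 2 each), an 8.79-fold drop (log2 −3.14, SE 0.20, adjusted p 5.577e-52). Phyhd1, a dioxygenase, was at 75.7, 64.5, 20.4 and 13.1 CPM (log2 −2.14, SE 0.21). Both kept their call with each library left out in turn. Of 32 fatty acid and phospholipid genes, 10 fell and 3 rose, against 3.37% of all genes called lower and 3.73% higher. Among those that fell was Ppara, the receptor that governs fatty acid breakdown. Them4, a thioesterase, went the other way (26.0, 32.0, 121 and 92.4 CPM, log2 1.81, SE 0.19), as did Fabp7, the fatty acid binding protein of radial glia and young astrocytes (17.3, 20.2, 60.6 and 49.6 CPM, log2 1.49, SE 0.18).

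Genes of cholesterol synthesis were among the higher calls. Of 23 genes of cholesterol synthesis and transport, 6 rose (4 in the quasi-likelihood test, 5 in DESeq2) and 0 fell, and 20 had a positive difference, with a median log2 fold change of 0.53. Mvd was at 11.8, 13.7, 28.6 and 28.1 CPM (log2 1.09, SE 0.18, adjusted p 1.272e-07), Hmgcs1 at 58.1, 71.4, 170 and 114.5 CPM (log2 1.07, SE 0.21) and Fdps at 18.8, 23.0, 49.9 and 36.9 CPM (log2 0.99, SE 0.20). All of these act in the pathway from acetyl-CoA to sterols. No cholesterol gene was called in another cell type, and for 8 of the 23 the rise was larger in astrocytes than in excitatory neurons. The test of the difference called 4.28% of all genes, and the astrocyte test called 3.73% higher.

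Glycolysis and glycogen genes showed 5 drops and no rise among 27 measured (all genes: 3.37% lower, 3.73% higher). Aldoc, the astrocyte aldolase, was at 302, 320, 163 and 187 CPM (log2 −0.89, SE 0.16, adjusted p 1.216e-06). Pygm, a glycogen phosphorylase, was at 48.6, 32.3, 19.9 and 12.95 CPM (log2 −1.37, SE 0.26). The median over the list, −0.080, was close to 0, so the change lay in single members. Pdk2, a kinase that limits entry of pyruvate into mitochondria, fell by 0.55 on the log2 scale and kept its call in 1 of the 4 fits with a library left out.

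Of 16 ion and water handling genes of the endfoot, 3 fell and 1 rose (all genes: 3.37% lower, 3.73% higher). Asic2, a proton-gated sodium channel, was at 762, 717, 237 and 229 CPM (log2 −1.73, SE 0.15, adjusted p 1.727e-25). Its mean went from 739 ± 32.4 to 233 ± 5.60 CPM, and the replicates of each group were close to each other. Aqp4, the endfoot water channel, rose (116, 95.3, 181.5 and 174 CPM, log2 0.69, SE 0.15). Hepacam, an adhesion molecule of endfeet and astrocyte territories, fell by 0.55 on the log2 scale and Atp1b2, a sodium pump subunit, by 0.50, and both kept their call in only 1 of the 4 fits with a library left out. Kcnj10, the main potassium channel of the endfoot, was not called (111, 115, 111.5 and 111 CPM). Gjb6 (connexin 30) fell among the gap junction genes (297, 246, 132 and 115 CPM, log2 −1.21, SE 0.16, adjusted p 1.684e-11). None of 14 genes of glutamate and GABA uptake passed the main test, although 12 had a negative difference, and there were 3 calls in DESeq2 and 2 in the quasi-likelihood test. The glutamate transporter Slc1a2 was at a log2 difference of −0.38 (SE 0.16, adjusted p 0.17).

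Matrix genes moved both ways. Tnc (tenascin C), a matrix glycoprotein of immature astrocytes, was at 66.4, 83.1, 225 and 217 CPM (log2 1.50, SE 0.16, adjusted p 8.401e-18). Vcan (versican) was at 25.6, 26.7, 70.4 and 88.9 CPM (log2 1.55, SE 0.17, adjusted p 2.053e-16). In both genes the gap between the groups was wide against the spread within them. Vcan is also a marker of OPCs, and the other 2 OPC markers, neither of them called, summed to 5.07, 5.68, 5.57 and 7.16 CPM in astrocytes. Of 4 oligodendrocyte markers 1 was called, and the 3 others summed to 55.3, 49.3, 75.3 and 55.5 CPM. The noncoding gene 8030451A03Rik, which overlaps Tnc on the opposite strand, also rose (12.9, 17.9, 49.8 and 48.3 CPM). Scrg1 fell (108, 96.0, 60.2 and 51.9 CPM, log2 −0.93, SE 0.15). Of 30 matrix proteins measured 4 rose and 5 fell, and of 23 matrix proteases and inhibitors 5 rose and 3 fell. Over all genes 3.73% were called higher and 3.37% lower. The protease Adamts20 fell by 1.26 on the log2 scale (64.4, 62.3, 29.6 and 25.8 CPM) and Mmp14, a membrane-bound metalloproteinase, rose (9.86, 7.17, 20.9 and 18.1 CPM, log2 1.12, SE 0.21). Sparc, which restrains synapse formation, was at 47.8, 17.9, 14.8 and 4.92 CPM (log2 −1.81, SE 0.52), with an adjusted p of 0.0108, but of 0.49 by DESeq2.

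Genes of maturation, shape and signalling followed. Ccnd3, a D-type cyclin, was at 305, 184, 68.6 and 49.6 CPM (log2 −2.11, SE 0.25, adjusted p 4.138e-14). Prom1 was at 40.1, 52.6, 10.4 and 13.6 CPM (log2 −2.0, SE 0.22), and Cntn1, an adhesion molecule, at 210, 248, 73.5 and 87.4 CPM (log2 −1.57, SE 0.17). Prom1, Cntn1 and Fam107a, an actin-bundling protein, were among 5 of 26 genes of astrocyte shape that fell, while 2 rose. The neuron-enriched Cntnap2 was among those that rose. Over all genes 3.37% were called lower and 3.73% higher. Hopx, a homeodomain protein, rose (11.1, 13, 31.7 and 28.6 CPM, log2 1.26, SE 0.18), whereas 28 of 33 lineage transcription factors were not called. The phagocytosis receptors Itgav and Mertk fell by 0.79 and 0.78 on the log2 scale, and the Wnt receptor Fzd2 fell by 1.08. Ptn, a secreted growth factor, rose (836, 1084, 1696 and 1587 CPM, log2 0.71, SE 0.19). Aldh1a1, a retinoic acid synthesizing enzyme, fell (500, 475, 199 and 262 CPM, log2 −1.14, SE 0.19). Thrsp, a thyroid hormone responsive gene, fell by 0.98 on the log2 scale, and Slco1c1, the thyroxine transporter, rose by 0.58, with its call kept in 1 of the 4 fits with a library left out.

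The clock list had 5 lower genes of 19 and none higher (all genes: 3.37% lower, 3.73% higher). Npas2 was at 418, 291, 201.5 and 173 CPM (log2 −0.98, SE 0.20), and Rora, a nuclear receptor, at 6184, 6144, 3802 and 3528 CPM (log2 −0.81, SE 0.16). Both are activators of the core loop. Per1, already counted among the receptor targets, and Per2 fell as well (per the study's methods all mice were collected within the same hours of the day, under red light). Of 15 reactive astrocyte genes measured 2 were called, Gfap (59.99, 47.4, 90.8 and 74.7 CPM, log2 0.56, SE 0.17, adjusted p 0.0179) and Cd44 (11.0, 10.3, 22.9 and 16.1 CPM), neither of which the quasi-likelihood test called. Single genes with the lowest p that fit no list were Rhou, a small GTPase (208, 164, 60.2 and 53.6 CPM, log2 −1.78), Zfhx3, a transcription factor (165, 196, 61.2 and 54.4 CPM, log2 −1.71), Arhgef28 (log2 −2.27), Fras1, a basement membrane protein (15.5, 17.9, 49.6 and 55.8 CPM, log2 1.60) and Ednra, an endothelin receptor (13.3, 10.6, 38.1 and 30.9 CPM, log2 1.46).

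**Figure D3:**
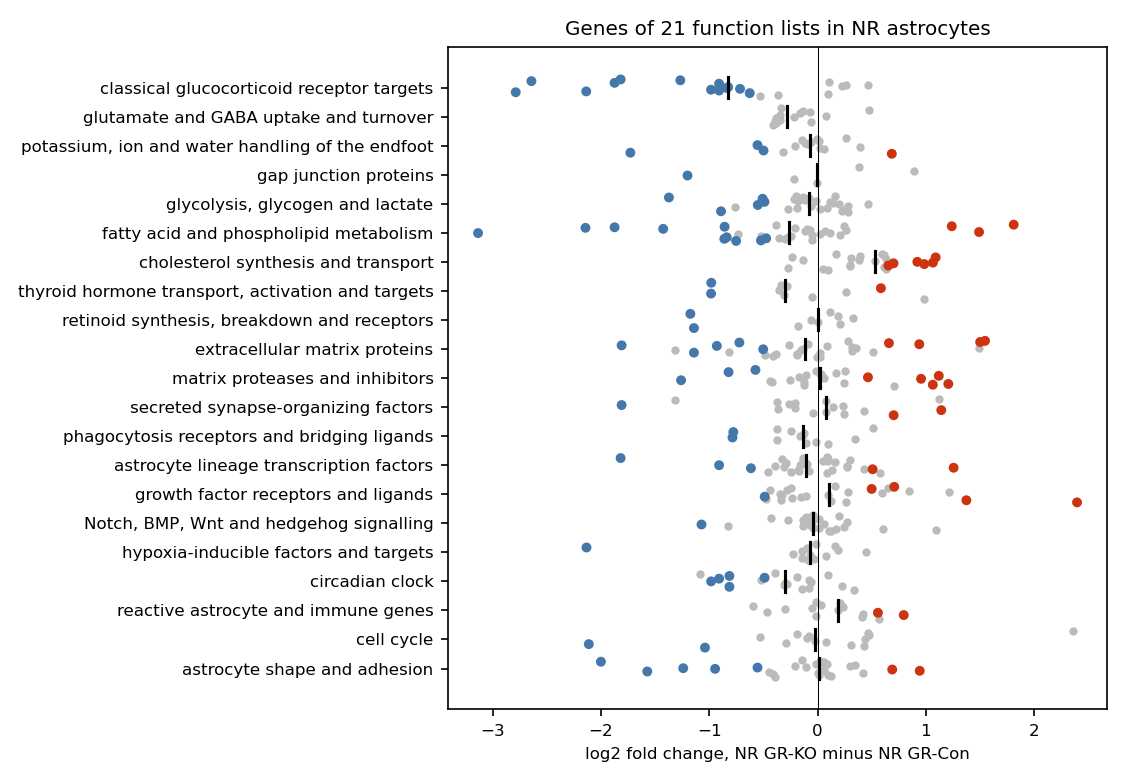
Log2 fold change in NR astrocytes of the genes of 21 function lists (red higher and called, blue lower and called, grey not called, black bar at the list's median). The receptor targets stand at the left with a median of −0.83 and the cholesterol genes to the right with 0.53, while most other medians lie near 0.

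The DR libraries gave the same contrast in other animals. There 104 genes were called in astrocytes (0.736% of those tested; 0 by the quasi-likelihood test with 874 at an unadjusted p under 0.05, and 65 by DESeq2). This count moved with single libraries, to 6 without the GR-KO female and 2505 without the GR-Con male. Of the other 476 genes lower under NR, 459 were measured under DR, 429 had the same direction and 61 were called, with a median of −0.48. Of the other 198 higher genes, 171 of 194 had the same direction and 16 were called, with a median of 0.54. Asic2 was at 709, 568.5, 218 and 252 CPM under DR, and Them4 at 37.4, 26.1, 129 and 105 CPM, so their levels were close to those under NR. Hif3a (log2 −1.70), Phyhd1 (log2 −1.81) and Vcan (log2 1.32) were called under DR too. Etnppl was called there by edgeR (247.8, 107.8, 31.7 and 57.3 CPM, log2 −1.98), but had an adjusted p of 0.45 in DESeq2. Tnc was not (192, 77.3, 328 and 271 CPM, adjusted p 0.29), with the GR-Con libraries far apart. The cholesterol list had a median of 0.58 under DR with 0 called. Of the neuron-enriched genes higher under NR, 123 of 337 had the same direction under DR, with a median of −0.14; the enrichment was defined in the DR GR-Con libraries, which enter this fold change.

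The neuron-enriched genes were higher in the GR-KO libraries in several glial types. Their share of all astrocyte UMIs was 3.61%, 3.44%, 4.92% and 5.14%. In oligodendrocytes it was 3.45%, 3.03%, 3.85% and 4.89%, and in OPCs 2.74%, 2.65%, 3.30% and 3.29%. In all 3 glial types the GR-KO libraries lay above the GR-Con libraries, and in the same libraries the median UMIs per nucleus were higher. Of 10 defining neuron markers, 7 were called higher in astrocytes, 6 in oligodendrocytes and 3 in OPCs (5, 3 and 2 in the quasi-likelihood test), and 0 of the 8 measured in endothelium and 0 of 8 in VLMCs. Summed over the 10 markers, astrocytes held 698, 574, 1171 and 1122 CPM, and none of the 10 was at 0 in any NR astrocyte library. The part of neuronal RNA in these results was not tested.

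**Figure D4:**
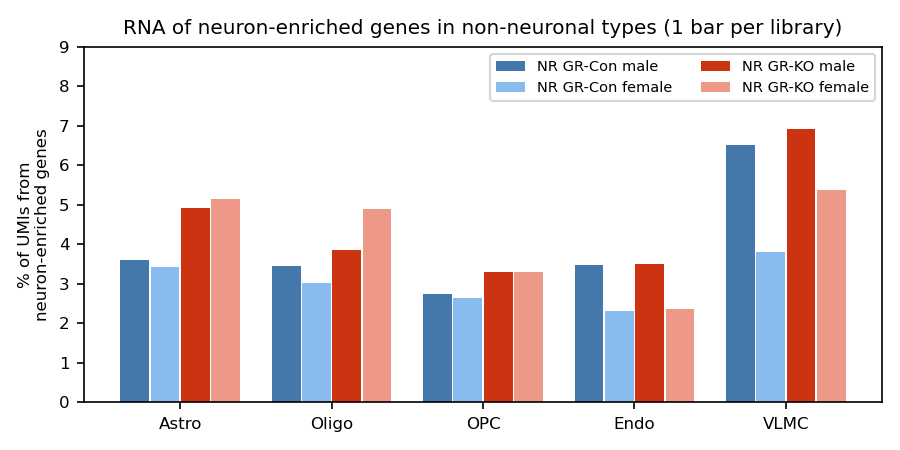
Percent of UMIs that came from neuron-enriched genes in 5 non-neuronal cell types, with 1 bar per NR library (blue GR-Con, red GR-KO). In astrocytes, oligodendrocytes and OPCs both GR-KO bars are higher than both GR-Con bars, and in endothelium the bars pair by sex.

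Astrocytes and oligodendrocytes were compared directly by a test of the difference in the genotype effect, which called 3.0% of all genes. Of the 343 neuron-enriched genes, 98 rose more in astrocytes than in oligodendrocytes and 3 rose less (101 calls, against 56 by the quasi-likelihood test), and 107 were also called higher in oligodendrocytes. The 343 genes were picked by their rise in these same astrocyte libraries. That choice tilts the split of 98 against 3 toward astrocytes, so no conclusion is drawn from it. Alk, a receptor tyrosine kinase, was at 13.01, 10.3, 68.8 and 60.3 CPM in astrocytes (log2 2.40, SE 0.18, adjusted p 1.623e-37), and its rise exceeded that in oligodendrocytes by 2.23 (SE 0.22) on the log2 scale and that in excitatory neurons by 2.84. Csmd3 and Erbb4, the neuregulin receptor, rose more than in oligodendrocytes by 1.44 and 1.52 on the log2 scale. Against excitatory neurons the difference was 1.01 for Csmd3, and for Erbb4 it was 0.52 and not called (adjusted p 0.31 in edgeR); these 3 genes were chosen after their values were seen. Synaptic and channel lists were mostly neuron-enriched. Of 47 synaptic adhesion genes 20 rose in astrocytes, all 20 neuron-enriched. Of 28 glutamate receptor genes 12 rose, all 12 neuron-enriched, and 1 fell (8 called in the quasi-likelihood test). Over all genes 3.73% were called higher, and over neuron-enriched genes 22.5%. The 47 and 28 count list members whether or not they are neuron-enriched. Of the 198 other higher genes, 69 rose more in astrocytes than in oligodendrocytes (29 by the quasi-likelihood test), and of the 476 other lower genes 144 fell more (75). For most of both sets this difference did not pass the test. Both sets were chosen by their call in these same astrocyte libraries, which favours a larger change in astrocytes. In oligodendrocytes 8 of the 198 were called higher.

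**Figure D5:**
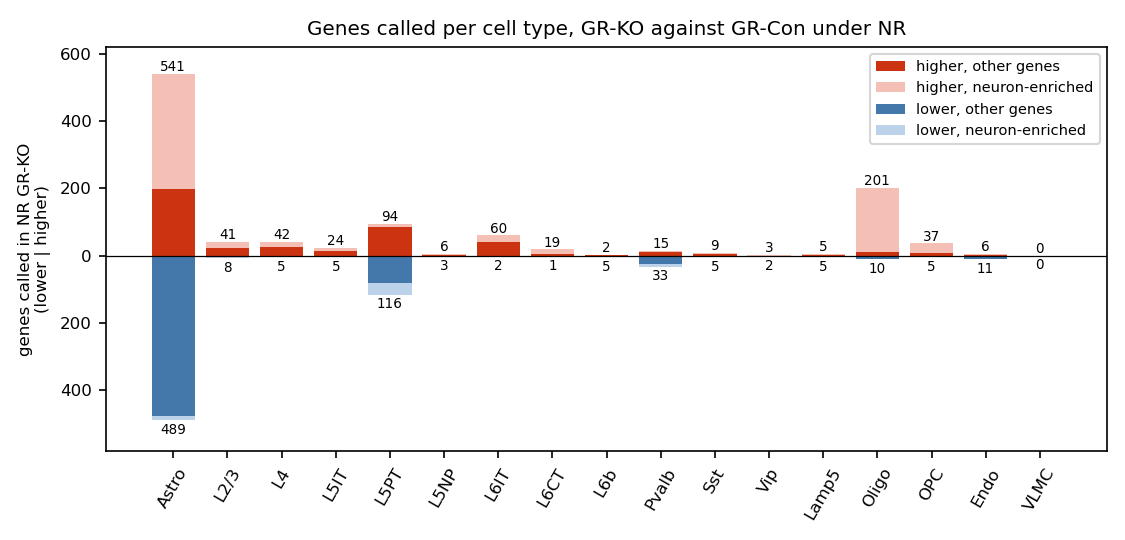
Number of genes called higher (above 0) and lower (below 0) in GR-KO in each of 17 cell types, with neuron-enriched genes in pale colour; in neuron types these are genes that the same rule marks because the summed excitatory or inhibitory neurons held at least 4 times the CPM of that type. Astrocytes have 541 and 489, and in oligodendrocytes 189 of the 201 higher genes are pale.

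Oligodendrocytes had 201 higher and 10 lower genes (1.53% of those tested, 1.46% higher; 79 in DESeq2 and 31 in the quasi-likelihood test), and 189 of the 201 were neuron-enriched. The calls numbered 86 without the GR-Con male, 117 without the GR-Con female and 354 without the GR-KO male library. With these genes left out before the fit, 4 were higher and 2 lower. Igfbp5, an IGF binding protein, was at 1.24, 1.38, 4.51 and 4.38 CPM (log2 1.73, SE 0.39), and Rnf213, an E3 ligase, at 24.5, 11.2, 7.70 and 7.75 CPM (log2 −1.26, SE 0.33). Neither was called by the quasi-likelihood test. None of 35 myelin and maturation genes was called (0 by the quasi-likelihood test), 31 with a negative difference and a median of −0.14. OPCs had 37 higher and 5 lower genes (0.355%), of which 30 higher were neuron-enriched; with these left out, 0 were called. Lrp4, a receptor of the LDL family, fell (156, 140.5, 95.9 and 96.1 CPM, log2 −0.66, SE 0.15), and the quasi-likelihood test called it too. Cenpe, a mitotic motor protein, rose (11.1, 12.8, 27.0 and 23.6 CPM), but lost its call with each library left out in turn. Endothelium had 6 higher and 11 lower genes (0.247%; 0 by the quasi-likelihood test) from 27 to 72 nuclei a library, among them Ptgds, prostaglandin D synthase (121, 55.1, 18.02 and 17.98 CPM). VLMCs had 0 calls (0%; 205 genes at an unadjusted p under 0.05 in edgeR, and also 0 with DESeq2 or quasi-likelihood testing).

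The 8 excitatory types had 433 calls over 376 genes (288 higher, 145 lower), of which 38 genes were called in 2 or more types and 4 in at least 4 (Erbb4, Gpc5, Capn11 and the vector's Cre). Cre and ΔCre made up 6 of the 433 calls. The quasi-likelihood test left 1 call and DESeq2 174. Without the GR-Con male library 83 calls were left, and without the GR-KO female 3539 were made. Genes whose CPM in a non-neuronal type was at least 4 times that in the neuron type, again in the DR GR-Con libraries, made up 163 of the 288 higher and 82 of the 145 lower calls, against 23.2% of all tests. They were 49 of the 60 higher calls in L6IT, where the microglial genes Siglech (0.379, 0.404, 1.18 and 4.30 CPM) and Gpr34 were among the called genes, and 71 of the 116 lower calls in L5PT. Gpc5, Epha6, Erbb4 and Grik4 met the same rule in the excitatory types whose values follow. The part of glial RNA in these counts was not tested. Genes at least 4 times higher in the summed excitatory or inhibitory neurons than in the type were also among the higher calls. They made up 15 of 19 in L6CT (7.21% of genes tested), 17 of 41 in L2/3 (6.04%) and 17 of 42 in L4 (6.03%). In L5PT they were 9 of 94 (4.54%) and in L6b 0 of 2. The part of RNA from other neuron types was not tested either. By type, the share called was 0.268% in L2/3, 0.266% in L4, 0.209% in L5IT, 1.44% in L5PT, 0.0755% in L5NP, 0.400% in L6IT, 0.123% in L6CT and 0.0627% in L6b. L5PT, the corticofugal neurons, held 210 of the calls, but its GR-KO female library had 59 nuclei, and its calls ran from 22 without the GR-Con female and 30 without the GR-Con male to 510 without the GR-KO female and 567 without the GR-KO male. Capn11, a calpain protease, was higher in 5 types, in L6CT at 0.686, 0.690, 3.16 and 2.57 CPM (log2 2.04, SE 0.31). Gpc5, a glypican of the cell surface, was higher in 5 types as well, in L5IT at 24.2, 27.7, 117 and 64.5 CPM (log2 1.81, SE 0.29), and lower in Pvalb interneurons.

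Guidance and synaptic genes were also called in excitatory types. Of 54 guidance genes 4 were called, each in 1 type (1.0% of 400 tests of a gene in a type), and 50 synaptic adhesion genes gave 10 calls over 5 genes (2.65% of 377), 5 of them for Erbb4, against 0.363% over all genes and excitatory types. Robo1, the Slit receptor, was at 79.4, 62.1, 243 and 170 CPM in L4 (log2 1.55, SE 0.24, adjusted p 4.425e-07), and Epha6, an ephrin receptor, at 14.5, 13.95, 27.4 and 24.4 CPM in L6CT (log2 0.85, SE 0.16). Both were called by DESeq2 too, and neither by the quasi-likelihood test. Erbb4 rose in L2/3, L4, L5IT and L6CT (L4: 11.4, 8.24, 26.3 and 35.7 CPM) and fell in L5PT (46.6, 57.8, 19.7 and 23.3 CPM, log2 −1.32, SE 0.20), where Cntnap5c, a contactin-associated protein, rose (53.5, 40.2, 129 and 188 CPM, log2 1.76, SE 0.26). Gabrg3, a GABA-A receptor subunit, rose in L4 (87.1, 65.8, 259 and 158 CPM), whereas Grik4, a kainate receptor subunit, fell there (29.0, 20.7, 11.4 and 12.8 CPM, log2 −1.04, SE 0.21). Some calls rested on a single library: Sema3e in L5IT was at 11.8, 13.1, 118 and 23.9 CPM. Of 30 activity-induced genes 2 rose in excitatory types, both in L5PT: Nr4a3 (4.76, 6.49, 18.2 and 17.4 CPM) and Inhba (7.94, 5.47, 13.6 and 11.1 CPM). Epha6, Gabrg3 and Cntnap5c were also called higher in astrocytes, oligodendrocytes and OPCs. In the other non-neuronal types 7.955% of 176 guidance tests and 10.91% of 165 synaptic adhesion tests were called, against 0.6891% over all genes. In all, 48 genes were called in astrocytes and in the same direction in at least 2 other types, 41 of them neuron-enriched.

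Cre UMIs were also found in neurons of the GR-KO libraries, in 6.105% of excitatory nuclei (899 of 14726) and 5.94% of inhibitory nuclei (134 of 2257), against 5.51% of astrocytes and 0.230% of oligodendrocytes. Scaled to UMIs, Cre was lower in excitatory neurons (3.70 and 0.745 CPM in the 2 GR-KO libraries) than in astrocytes (10.19 and 4.14). UMIs of the vector's eGFP were found in 9.77% of GR-KO astrocytes, against 1.77% of excitatory and 1.55% of inhibitory nuclei. In GR-Con, whose vector also carried eGFP, the values were 5.392%, 0.3241% and 0.3902%. The male GR-KO library had Cre UMIs in 8.76% of excitatory nuclei (95% exact binomial interval 8.17% to 9.38%) and the deeper female GR-KO library in 2.44% (2.07% to 2.86%). In L2/3 Cre was at 0, 0, 3.51 and 0.717 CPM. Median depths were 27170 and 37730 UMIs in GR-KO L2/3 neurons and 11130 and 15570 in oligodendrocytes. Intervals cover counting error only. UMIs assigned to ΔCre were likewise found in GR-KO neurons, in L4 in 21, 29, 252 and 73 nuclei. Whether the receptor was lost in neurons was not tested. In the excitatory types 0 of 19 measured receptor targets were called. These sums cover all nuclei of a type, so a loss in a small part of them need not show in this count.

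The 4 inhibitory types had 77 calls (32 higher, 45 lower; 14 in DESeq2 and 2 in the quasi-likelihood test; 45 without the GR-Con male, 368 without the GR-KO female and 577 without the GR-KO male library), with 0.336% of genes in Pvalb, 0.104% in Sst, 0.0387% in Vip and 0.0861% in Lamp5. Cre and ΔCre made up 3 of these calls. Glia-enriched genes, by the same rule, made up 14 of the 32 higher and 37 of the 45 lower calls, against 17.75% of all tests, and in Pvalb 29 of 33 lower calls, Etnppl, Aldh1a1, Fam107a and Ezr among them. Of the genes below, Gpc5, Sorcs1, Brinp3, C1qtnf7 and Unc5d met it too, and Skap1 did not. The part of glial RNA was not tested here either. Gpc5 fell in Pvalb interneurons, the fast-spiking cells (94.2, 68.6, 25.7 and 22.3 CPM, log2 −1.77, SE 0.18, adjusted p 4.918e-19), and was called there by all 3 tools and with each library left out in turn. Sorcs1, a sorting receptor, fell there as well (53.0, 58.1, 32.3 and 26.0 CPM, log2 −0.93, SE 0.14). Etnppl was at 1.57, 1.45, 0.0747 and 0 CPM in Pvalb. In all inhibitory nuclei it was at 1.24, 1.23, 0.0622 and 0.0485 CPM, while 5 astrocyte markers summed to 36.8, 22.2, 27.0 and 22.4 CPM in the same sums. Aqp4 and Gfap, themselves called higher in GR-KO astrocytes, were among these markers. In Lamp5 interneurons Skap1, an adaptor protein, fell (47.6, 45.9, 20.2 and 18.6 CPM, log2 −1.26, SE 0.20) and was called by the quasi-likelihood test, and Brinp3 rose (69.2, 58.2, 114 and 166.5 CPM). In Sst interneurons C1qtnf7 fell (33.9, 32.3, 11.97 and 12.4 CPM, log2 −1.46, SE 0.18), and in Vip interneurons Unc5d, a netrin receptor, rose (126, 121, 243 and 263 CPM, log2 1.03, SE 0.16).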

How the data were processed

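Nuclei of V1 were profiled by droplet single-nucleus RNA-seq, with 2 libraries per group. The authors aligned reads with Cell Ranger 8.0.1 to mm10 with the vector sequences added, filtered nuclei in Seurat 5.3.0 (versions from the submitters' processing notes), removed predicted doublets with DoubletFinder and named the cell types. The deposited matrix holds UMI counts without normalization, and the deposited cell table holds UMI counts, the percent of mitochondrial UMIs, the library, rearing, vector and cell type. Library names carry sex but no replicate number, and libraries are called by group and sex.

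UMIs were summed per library and cell type and tested with edgeR's glmLRT, the test named in the study's methods (edgeR 4.0.16, R 4.3.3, two-sided). The default filterByExpr filtering, TMM factors and Benjamini-Hochberg adjustment within a type were chosen here. SE is the log2 fold change divided by the root of its likelihood ratio statistic. The quasi-likelihood test, DESeq2 1.42.0, RLE factors, no filter, sex as a term, equal nuclei, each library left out and neuron-enriched genes left out were the alternatives. The genotype effect was compared between cell types of the same libraries in 1 fit with the library as a block. On data simulated for astrocytes and L2/3 neurons, the likelihood ratio test made more false calls than its threshold allows, and more than the quasi-likelihood test or DESeq2 did. Only 2 libraries per group limit precision. The p-values rest on dispersions estimated in part across genes, not on a gene's own spread between animals alone. Positions of promoters come from RefSeq on GRCm38.p6, the build of mm10.

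Genes were named by rule: Nr3c1; of each astrocyte list up to 3 called members with the lowest p that are not neuron-enriched; the 8 such genes with the lowest p per direction and an average log2 CPM of at least 4; in other types the called genes with the lowest p, called members of neuron lists and genes called in at least 4 excitatory types. Receptor targets and other list members named beyond this were chosen after their values were seen. Some list members are not reported here by name. The members and lists were chosen with earlier results of these data known.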

Additional observations from a re-analysis of the deposited data

Results flagged for a closer look

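The genotype effect differed between astrocytes and excitatory neurons of the same libraries for 903 genes (558 higher and 345 lower in astrocytes), and between astrocytes and oligodendrocytes for 462 genes (251 and 211), by the test of the difference itself. The quasi-likelihood test gave 544 and 195 genes. UMIs of Cre, a vector transcript that no mouse gene gives, were found in 6.105% of NR GR-KO excitatory nuclei and in 0 of 18510 NR GR-Con excitatory nuclei.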

How the results depend on the processing

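No paired analysis was possible by replicate number because the library names carry none; sex as a term pairs the libraries by sex. The 1030 astrocyte calls became 635 without neuron-enriched genes (share higher 32.0% against 52.5%), 2041 with sex as a term and 605 to 835 with a library left out (605 without the GR-Con male). The 433 excitatory calls became 174 by DESeq2, 1 by the quasi-likelihood test, 1359 with sex as a term and 83 (without the GR-Con male), 121 (GR-Con female), 1003 (GR-KO male) or 3539 (GR-KO female) with a library left out. The 77 inhibitory calls became 14 by DESeq2, 48 with equal nuclei, 2 by the quasi-likelihood test, 261 with sex as a term and 45 (GR-Con male) to 577 (GR-KO male) with a library left out, 368 without the GR-KO female. The 270 calls of other non-neuronal types became 17 without neuron-enriched genes (35.3% higher against 90.4%), 98 by DESeq2, 64 by the quasi-likelihood test, 469 with sex as a term and 185 to 448 (without the GR-KO male). The difference from excitatory neurons gave 472 genes by DESeq2, 544 by the quasi-likelihood test and 553 (GR-Con male) to 952 with a library left out; 595 without the GR-Con female. The difference from oligodendrocytes gave 128, 195 and 239 (GR-Con male) to 474. The 104 DR calls became 65 by DESeq2, 0 by the quasi-likelihood test, 224 with sex as a term and 6 (GR-KO female), 7 (GR-KO male), 736 (GR-Con female) or 2505 (GR-Con male) with a library left out. The neuron-enriched share of calls, 63.4% of the higher genes in astrocytes, was 71.35% with enrichment set at 2-fold and 66.36% with it taken from the NR GR-Con libraries. Of 171 named results, 108 kept their call in DESeq2 and 72 in the quasi-likelihood test. Zfp804b in endothelium reversed with equal nuclei, to −0.43. The causes were not tested.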

Other observations

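Of 33 potassium channel genes in astrocytes, 14 rose, of which 11 were neuron-enriched, and 6 fell, against 3.73% of all genes higher and 3.37% lower and 22.5% of neuron-enriched genes higher. Kcnt1, a sodium-activated channel, was at 43.8, 30.3, 15.2 and 8.72 CPM (log2 −1.71, SE 0.28), and Kcnq3 at 1120, 1443, 531 and 852 CPM (log2 −0.95, SE 0.26). Mfsd2a, a lipid transporter, fell in astrocytes (42.5, 37.0, 14.3 and 15.2 CPM, log2 −1.49, SE 0.17), and Angpt1, an angiogenic ligand, rose (47.3, 53.0, 109 and 78.3 CPM, log2 0.83, SE 0.19). These genes were chosen after their values were seen.

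Npas2 and Asic2, lower in astrocytes, were called higher in oligodendrocytes (log2 1.29 and 0.73). Most higher calls in oligodendrocytes, 189 of 201, were of neuron-enriched genes. Microglia could be set side by side in the female libraries only, with 1 library per genotype and no test: Fkbp5 was at 305 CPM (95% exact Poisson interval 276 to 335) in GR-Con and 259 (243 to 276) in GR-KO, and P2ry12, a microglial receptor, at 1550 (1485 to 1617) and 1344 (1306 to 1382). The intervals cover counting error only.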
